A study of Mus musculus with 24 samples.

Results

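Silencing of P16Ink4a was examined in cultured Cd146+ liver cells, in 6 RNA sequencing libraries of the 24 in the series. The study calls them liver sinusoidal endothelial cells, and the marker genes below go against that name in part. The members were taken by their labels, 3 libraries with P16 shRNA (replicates 3, 5 and 6) and 3 with a non-coding hairpin, nc shRNA (replicates 1, 3 and 5). Numbers 3 and 5 occur in both groups. The labels and methods describe C57BL/6 mice aged 3 months, stated to be female, whose liver cells were bound by Cd146 MicroBeads, cultured, transduced with a pLKO.1 lentivirus and harvested 1 week later. Both groups share the stated strain, age, bead selection, culture, vector and time, and differ in the hairpin. All values are means over a culture, so fewer cells of a type and less RNA per cell cannot be told apart.

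P16Ink4a, encoded by Cdkn2a, binds the kinases CDK4 and CDK6 and keeps them from cyclin D, which leaves the retinoblastoma protein active and E2F target genes off. The same gene gives p19Arf, which restrains MDM2, the ligase that degrades p53. Type I interferons bind a receptor that activates JAK1 and TYK2, STAT factors then join IRF9, and this complex binds an interferon-stimulated response element (ISRE) in the promoters of antiviral genes. Liver sinusoidal endothelial cells line the hepatic capillaries, scavenge material from the blood through receptors such as stabilins, and respond to viral nucleic acids.

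Between 17710522 and 26470392 reads were counted on genes in each library, so that 3 counts, the limit that a count of 0 allows, corresponded to 0.113 to 0.169 CPM (counts scaled to a common library size). These limits cover counting error only. Libraries numbered 3 stood apart in both groups. In CPM normalised by the TMM method, the summed level of 28 endothelial marker genes was 2241, 618 and 2430.0 CPM with nc shRNA and 549, 2177 and 2379 CPM with P16 shRNA. Pecam1, an adhesion molecule of endothelial junctions, reached 224, 10.3 and 231 CPM with nc shRNA and 4.12, 219 and 228 CPM with P16 shRNA. Both libraries numbered 3 thus lay far below the other 4, with Cdh5, which encodes VE-cadherin, at 149, 6.47 and 267 CPM with nc shRNA and 4.07, 258 and 179 CPM with P16 shRNA. Mcam, which encodes Cd146 itself, had 155, 11.8 and 243 CPM with nc shRNA and 3.27, 176 and 279.8 CPM with P16 shRNA.

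Of the sinusoidal markers, 16 of 23 were tested, and the list summed to 1243, 1200.2 and 1220.4 CPM with nc shRNA and 708, 1089.5 and 1121 CPM with P16 shRNA with Ctsl, a lysosomal protease gene of many cell types, as its most abundant member. The hyaluronan receptor gene Stab2 had counts of 5, 2 and 4 with nc shRNA and 10, 10 and 8 with P16 shRNA, and the lectin gene Clec4g 0, 1 and 0 and 0, 0 and 0. Both were thus at or near 0 in every library. Stab1, the other stabilin, had 26.6, 7.19 and 307 CPM with nc shRNA and 3.98, 258 and 151 CPM with P16 shRNA, lowest in both libraries numbered 3. Mesenchymal genes were abundant in all 6. The list of 20 summed to 16875, 35207 and 30863 CPM with nc shRNA and 36814, 35390 and 29626 CPM with P16 shRNA. Its member Col1a1 had 4719.8, 12422 and 11607 CPM with nc shRNA and 13677, 11813 and 8545 CPM with P16 shRNA. The summed level of 20 macrophage genes was 75.2, 28.7 and 366 CPM with nc shRNA and 21.2, 341 and 225 CPM with P16 shRNA, lowest in both libraries numbered 3. Libraries also went against the stated female sex. The Y-linked Ddx3y had 137, 124 and 0 CPM with nc shRNA and 115, 0 and 0 CPM with P16 shRNA, and the X-inactivation RNA Xist had 0.112, 0.0851 and 778 CPM with nc shRNA and 0.0443, 578 and 337 CPM with P16 shRNA, so nc shRNA replicates 1 and 3 and P16 shRNA replicate 3 carried Y-linked transcripts and the other 3 did not. The part of these differences in the results was not tested as a cause, but the comparison of the hairpins in Cd146+ cells was repeated without both libraries numbered 3, and with a term for Y-linked transcripts. For the difference from Cd31+ cells these fits were not run.

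**Figure D1:**
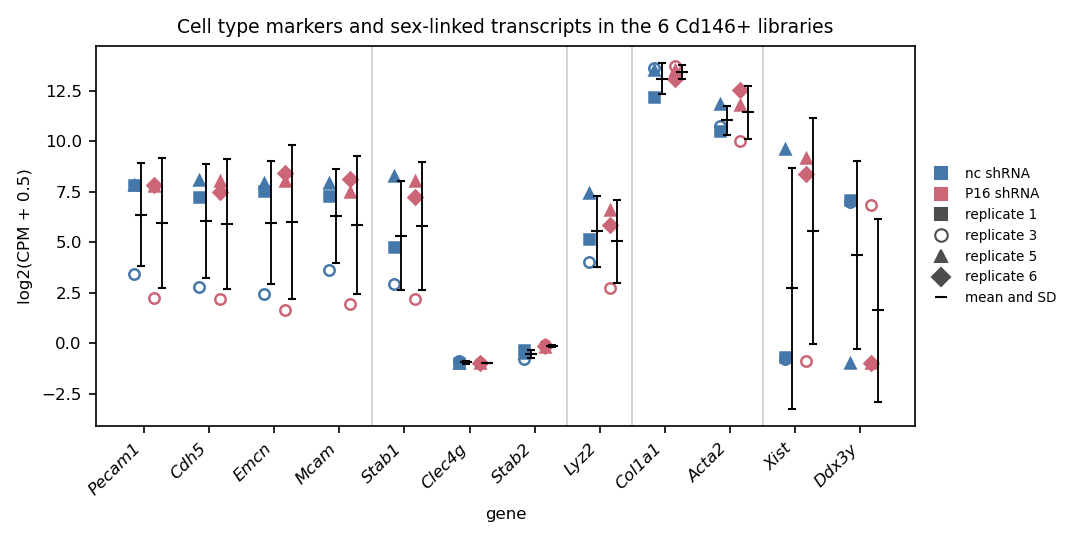
Level of cell type markers and sex-linked transcripts as log2(CPM + 0.5) in the 3 nc shRNA (blue) and 3 P16 shRNA (red) libraries, with the marker shape giving the replicate number and bars the mean and SD of a group. Open circles, the libraries numbered 3, sit far below the other 4 for Pecam1, Cdh5, Emcn and Mcam, and Xist and Ddx3y separate 3 libraries from the other 3 across the groups.

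Cdkn2a, the target of the hairpin, was far lower with P16 shRNA. It had 201, 128 and 96.8 CPM in nc shRNA replicates 1, 3 and 5, and 7.92, 11.6 and 26.4 CPM in P16 shRNA replicates 3, 5 and 6, the order kept for all values below. The groups did not overlap, which gives the smallest p that 3 libraries against 3 allow (exact permutation test, two-sided p = 0.1). Its mean fell from 142 ± 53.2 to 15.3 ± 9.805 CPM (SD, n = 3 each), to 10.8% of the control level. The level was 16.2-fold lower in the pair numbered 3 and 8.38-fold lower in the pair numbered 5. In the two-sided quasi-likelihood test of edgeR, log2 fold change -3.21, standard error 0.53, unadjusted p = 0.000693 went with an adjusted p of 0.361 from edgeR. The deposited annotation places the gene on the minus strand of chromosome 4 from 89192708 to 89212890, in a build that the sources used here leave unsettled. Counts per gene do not separate p16Ink4a from p19Arf transcripts.

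Over all 15124 genes tested, 823 were higher (5.44%) and 934 lower (6.18%) with P16 shRNA at an unadjusted p under 0.05 in edgeR, and 0 once adjusted. In either direction that was 11.6% of genes. In the text, higher and lower call a gene at that unadjusted p, and these shares are the background of each count. Replicate numbers pair the libraries, and a fit with the number as a block over all 12 Cd146+ libraries, which adds 3 with P16 overexpression and 3 with an empty vector, gave 570 higher genes (3.77%) and 765 lower genes (5.06%) with an edgeR-adjusted p below 0.05. In that fit P16 shRNA replicate 6, whose number no other library shares, does not inform the difference. DESeq2's Wald test gave 333 genes (2.2%) at an adjusted p under 0.05. Of the 1757 genes called in the 6-library fit, 849 were among the 1335 called with the block at an edgeR-adjusted p under 0.05. All 849 had the same direction in both fits. The fits share the 6 libraries, so this is no independent support. For Cdkn2a the block led to -3.39 (edgeR-adjusted p = 0.00884). The 3 libraries of a group lay wholly above the other group for 10.7% of genes and wholly below for 10% of genes.

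Among the other inhibitors of cyclin-dependent kinases, 1 was higher and none of the rest was called. Cdkn2b, the neighbour of Cdkn2a that encodes p15Ink4b, had 198, 134 and 90.2 CPM with nc shRNA and 92.5, 129 and 178 CPM with P16 shRNA, and its groups overlapped. Cdkn2d, which encodes p19Ink4d, was higher, with 13.8, 16.97 and 18.3 CPM with nc shRNA and 29.96, 23.2 and 31.4 CPM with P16 shRNA (log2 fold change 0.78, standard error 0.20, unadjusted p = 0.00678 from edgeR). Cdkn1a, the p53 target that encodes p21, had 444, 347 and 594 CPM with nc shRNA and 209.7, 413 and 514 CPM with P16 shRNA, with a log2 fold change of -0.28, unadjusted p = 0.463 from edgeR. The blocked fit placed it lower (-0.64, adjusted p = 0.00878 from edgeR). Per length, in the authors' FPKM values, Cdkn2a stood at 117 ± 43.2 FPKM with nc shRNA and 12.7 ± 8.23 FPKM with P16 shRNA, and Cdkn2b at 98.1 ± 37.2 FPKM with nc shRNA and 93.2 ± 30.98 FPKM with P16 shRNA (SD, n = 3 each).

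Of 25 genes of the retinoblastoma and E2F axis, 3 were lower and 1 higher. Ccnd1, which encodes the CDK4 and CDK6 partner cyclin D1, had 559, 609 and 363 CPM with nc shRNA and 277, 159 and 109 CPM with P16 shRNA (log2 fold change -1.49, standard error 0.39, unadjusted p = 0.00667 from edgeR). With the block it had -1.16 and an adjusted p of 0.00178 from edgeR. Ccnd2, which encodes cyclin D2, had 1370.5, 963 and 1186 CPM with nc shRNA and 631, 851 and 667 CPM with P16 shRNA (log2 fold change -0.71, standard error 0.21, unadjusted p = 0.0137 from edgeR). Neither cyclin gene overlapped between the groups. Rbl2, which encodes the retinoblastoma relative p130 of quiescent cells, had 44.2, 36.1 and 34.2 CPM with nc shRNA and 11.9, 13.8 and 7.44 CPM with P16 shRNA (log2 fold change -1.79, standard error 0.27, unadjusted p = 0.000357 from edgeR), and -1.41 with the block (adjusted p = 0.00225 from edgeR). Cdk1, the mitotic kinase, was higher, with 30.96, 53.4 and 63.6 CPM with nc shRNA and 124, 63.9 and 84.7 CPM with P16 shRNA (log2 fold change 0.88, standard error 0.35, unadjusted p = 0.0404 from edgeR). With the block Cdk1 had 0.59 (adjusted p = 0.206 from edgeR). Rb1 itself had 41.1, 24.3 and 35.97 against 21.5, 31.3 and 24.6 CPM, with overlapping groups, and Cdk4 had 223, 278 and 232 against 326, 241 and 327 CPM. None of the 8 E2f genes was called. The higher count of this axis was 6 when nc shRNA replicate 5 was left out. Calls that did not hold without a single library were those of Cdk1 without nc shRNA replicates 1 or 3 or P16 shRNA replicates 3 or 6 (log2 fold change 0.59 to 0.94).

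Genes of DNA replication and of mitosis had higher counts of calls than the background on the higher side. Of 42 replication genes, 41 had a positive log2 fold change, 9 were higher and 0 lower, and the median log2 fold change was 0.65, beside 0.025 over all genes tested. Rrm2, a ribonucleotide reductase subunit, had 28.4, 45.7 and 69.4 CPM with nc shRNA and 111, 80.3 and 90.8 CPM with P16 shRNA (log2 fold change 0.98, standard error 0.33, unadjusted p = 0.0235 from edgeR), and Gins1, of the replicative helicase, 3.07, 4.42 and 3.39 CPM with nc shRNA and 12.9, 6.398 and 5.98 CPM with P16 shRNA (log2 fold change 1.21, standard error 0.39, unadjusted p = 0.0177 from edgeR). Of 39 mitotic genes, 11 were higher and 1 lower, with a median of 0.73. Aurka, which encodes Aurora kinase A, had 12.3, 19.7 and 26.8 CPM with nc shRNA and 59.7, 33.1 and 39.5 CPM with P16 shRNA (log2 fold change 1.17, standard error 0.35, unadjusted p = 0.0132 from edgeR). P16 shRNA replicate 3 was the highest library for most of these genes, and nc shRNA replicate 1 the lowest. The summed level of the mitotic list was 913, 1428 and 1638 CPM with nc shRNA and 2661, 1675 and 1465 CPM with P16 shRNA, so the groups overlapped. That of the replication list overlapped too, with 1053.8, 1711.4 and 1499.7 CPM with nc shRNA and 2622.8, 1544.6 and 1462.5 CPM with P16 shRNA. Without P16 shRNA replicate 3, 1 replication and 3 mitotic genes were higher, leaving out nc shRNA replicate 1 gave 2 and 3, and leaving out nc shRNA replicate 3 gave 3 and 3. Leaving out nc shRNA replicate 5 raised the mitotic count to 17, and leaving out P16 shRNA replicate 6 lowered it to 7. Without both libraries numbered 3, each list had 2 higher genes, against 3.71% of all genes in that fit. With the block over 12 libraries, 2 replication and 2 mitotic genes were higher with an edgeR-adjusted p below 0.05. Leaving out a library ended the call of Rrm2 without nc shRNA replicate 3 or P16 shRNA replicates 3 or 6 (log2 fold change 0.83 to 0.97) and Gins1 without nc shRNA replicate 1 or P16 shRNA replicate 3 (log2 fold change 0.76 to 1.09).

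p53 and its targets had calls on the lower side. Of 21 such genes, 7 were lower and 0 higher, with a median of -0.39. Mdm2, the p53 ligase and itself a p53 target, had 401, 362 and 280.5 CPM with nc shRNA and 171, 185 and 169 CPM with P16 shRNA (log2 fold change -0.99, standard error 0.19, unadjusted p = 0.00126 from edgeR). Trp53inp1, a p53 cofactor in cell death and autophagy, had 196, 196 and 163 CPM with nc shRNA and 76.7, 112 and 76.9 CPM with P16 shRNA (log2 fold change -1.06, standard error 0.21, unadjusted p = 0.00177 from edgeR). The other 5 were Polk, Zmat3, Eda2r, Aen and Ccng1, with log2 fold changes from -1.02 to -0.48. Every P16 shRNA library lay below every nc shRNA library in 7 of the 21, against 10% of all genes. Trp53 itself had 89.5, 123 and 128 against 149, 126 and 145 CPM, and was not called. With the block over 12 libraries, 10 of the 21 were lower and 1, the kinase gene Plk2, higher with an edgeR-adjusted p below 0.05. Without both libraries numbered 3, 4 of the 21 were lower, against 5.34% of all genes in that fit. A call was lost on leaving out 1 library for Aen without nc shRNA replicate 3 (log2 fold change -0.42) and Ccng1 without P16 shRNA replicate 3 (log2 fold change -0.47).

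**Figure D2:**
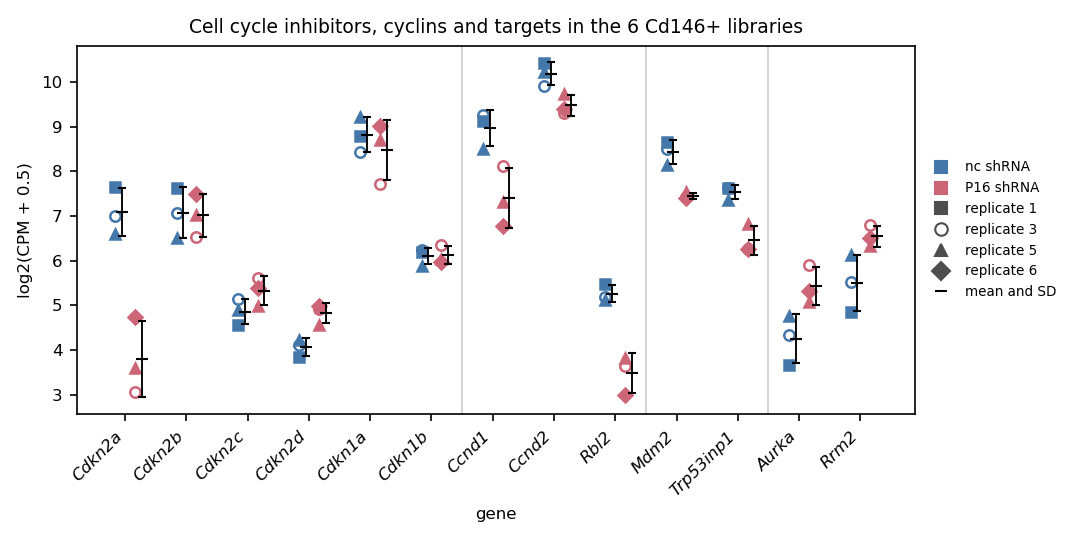
Level of cell cycle inhibitors, D cyclins, Rbl2, p53 targets, Aurka and Rrm2 as log2(CPM + 0.5) in the 6 Cd146+ libraries, by construct (colour) and replicate number (shape), with the mean and SD of each group. Cdkn2a, Ccnd1, Ccnd2, Rbl2, Mdm2 and Trp53inp1 lie lower in all 3 P16 shRNA libraries, and Cdkn2b overlaps.

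The largest rises were those of interferon-stimulated genes. RefSeq promoters (GRCm38.p6, 250 bases before to 50 after a start) were searched on both strands for the core of the response element, written GAAA-NN-GAAA with N for any base. It occurred in 3.99% of 27025 genes with a promoter in the table, in 51.2% of the 43 matched interferon effector genes (of 55), and in 84.6% of the 13 matched interferon-inducible GTPase genes (of 21). Other lists of interferon and immune genes had lower shares. The share was 28.6% of 14 matched nucleic acid sensors, 26.7% of 15 MHC class I genes and 20% of 5 immunoproteasome genes. It was 15% of 20 chemokines, 14.3% of 7 interferon regulatory factors and 9.09% of 11 receptor, kinase and STAT/IRF9 genes. The core occurred in 9.38% of the 32 matched mitotic genes, in 6.25% of the 16 matched p53 targets and in 0 of the 33 matched replication genes. A match is a description of these letters and not of a bound site. The windows of 40 bases below were taken from genes with a match, and values follow for all of them but Ifit3. Higher genes without a match, such as Irf7, Irf9, H2-K1 and Psmb8, have no window. The windows are read 5′ to 3′ on the strand of the gene, with 1 match in capitals. The windows of Isg15, Bst2 and Apol9a hold further, overlapping or adjoining matches that are left in lower case.
Isg15 (chr4:156200860-156200899, minus strand): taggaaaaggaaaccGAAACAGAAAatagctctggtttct
Ifit1 (chr19:34640789-34640828, plus strand): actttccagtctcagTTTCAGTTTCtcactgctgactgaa
Ifit3 (chr19:34583392-34583431, plus strand): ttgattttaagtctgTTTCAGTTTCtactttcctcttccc
Bst2 (chr8:71537572-71537611, minus strand): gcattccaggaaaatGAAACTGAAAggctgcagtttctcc
Rsad2 (chr12:26456548-26456587, minus strand): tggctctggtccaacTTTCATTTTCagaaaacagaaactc
Apol9a (chr15:77411109-77411148, minus strand): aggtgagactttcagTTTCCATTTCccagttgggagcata
Cxcl10 (chr5:92349078-92349117, minus strand): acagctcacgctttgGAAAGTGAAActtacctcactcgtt
Ifit1 and Ifit3 carry the same 10 letters, and all 7 windows end before the annotated start.

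Interferons themselves were hardly detected. Of 21 ligand genes, 0 passed the filter on low counts and 15 had 0 counts in all 6 libraries. Ifnb1, which encodes interferon β, had counts of 0, 0 and 0 with nc shRNA and 8, 0 and 1 with P16 shRNA. Such counts do not allow a comparison at this depth. By RT-PCR the study saw higher Ifn-α and Ifn-β in both cell populations on silencing.

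Receptor subunits were present and not called. Ifnar1, a chain of the type I receptor, had 111, 131 and 99.98 CPM with nc shRNA and 100.2, 95.5 and 76.8 CPM with P16 shRNA (log2 fold change -0.33, standard error 0.19, unadjusted p = 0.121 from edgeR), and Ifnar2, the other chain, 54.4, 59.4 and 48.9 against 71.5, 48.2 and 42.9 CPM. Jak1, the kinase bound to the receptor, was lower, with 270.3, 228 and 262 CPM with nc shRNA and 189, 207 and 149 CPM with P16 shRNA (log2 fold change -0.48, standard error 0.19, unadjusted p = 0.0374 from edgeR), but not with the block (-0.28, adjusted p = 0.108 from edgeR). Genes of the transcription complex were higher. Stat2 had 22.9, 25.5 and 25.9 CPM with nc shRNA and 190.3, 69.8 and 41.8 CPM with P16 shRNA (log2 fold change 2.02, standard error 0.55, unadjusted p = 0.0091 from edgeR, 1.17 without P16 shRNA replicate 3), and Irf9 22.3, 22.8 and 19.2 CPM with nc shRNA and 143, 65.6 and 49.2 CPM with P16 shRNA (log2 fold change 2.005, standard error 0.41, unadjusted p = 0.00205 from edgeR). In both the controls lay close together and P16 shRNA replicate 3 was highest. The call depended on single libraries for Jak1 without nc shRNA replicates 1, 3 or 5 or P16 shRNA replicates 3 or 6 (log2 fold change -0.55 to -0.38).

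Of 8 interferon regulatory factors 6 were tested and 2 were higher. Irf7, the amplifier of interferon production, had 1.84, 3.62 and 3.01 CPM with nc shRNA and 193, 37.7 and 36.3 CPM with P16 shRNA (log2 fold change 4.97, standard error 0.83, unadjusted p = 0.000761 from edgeR), a 31.5-fold rise of the mean. Irf5 had 7.75, 10.1 and 7.49 against 22.5, 11.7 and 11.7 CPM (log2 fold change 0.86, standard error 0.33, unadjusted p = 0.0356 from edgeR). Irf3, which responds to nucleic acid sensing, had 39.2, 38.5 and 37.7 against 30.6, 38.9 and 61.8 CPM and was not called. Of 13 tested feedback inhibitors of the pathway 3 were higher, with a median of 0.13 over the list, and without both libraries numbered 3 it was 1, with a median of -0.09. Usp18, which removes ISG15 from proteins and blocks the receptor, had 0.446, 1.62 and 1.37 CPM with nc shRNA and 157, 26.7 and 26.1 CPM with P16 shRNA (log2 fold change 5.92, standard error 1.01, unadjusted p = 0.000825 from edgeR), and Socs1, an inhibitor of Janus kinases, 2.23, 1.57 and 2.46 CPM with nc shRNA and 8.23, 4.07 and 5.02 CPM with P16 shRNA (log2 fold change 1.47, standard error 0.39, unadjusted p = 0.00804 from edgeR). Adar, which edits double-stranded RNA, was the remaining called gene, with 29.3, 28.9 and 35.4 against 107, 61.03 and 37.3 CPM (log2 fold change 1.13, standard error 0.38, unadjusted p = 0.0206 from edgeR, 0.65 without P16 shRNA replicate 3). With 1 library left out, the call was lost for Irf5 without nc shRNA replicates 1 or 5 or P16 shRNA replicate 3 (log2 fold change 0.46 to 0.78) and Adar without nc shRNA replicates 1 or 3 (log2 fold change 1.07 to 1.08).

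Sensors of foreign nucleic acid were higher in 6 of 18 tested genes and lower in 0. The RNA helicase genes Ddx58, which encodes RIG-I, Ifih1, which encodes MDA5, and Dhx58, which encodes LGP2, were all among them. Ddx58 had 33.97, 68.8 and 45.8 CPM with nc shRNA and 327, 106 and 82.7 CPM with P16 shRNA (log2 fold change 1.795, standard error 0.58, unadjusted p = 0.0193 from edgeR, 0.93 without P16 shRNA replicate 3), and Dhx58 1.34, 2.42 and 1.203 CPM with nc shRNA and 70.9, 12.9 and 10.4 CPM with P16 shRNA (log2 fold change 4.23, standard error 0.89, unadjusted p = 0.00259 from edgeR, 2.797 without P16 shRNA replicate 3). Zbp1, the sensor of Z-form nucleic acids that can start necroptosis, had counts of 2, 4 and 2 in the controls and 4135, 199 and 88 with P16 shRNA. This gene had the largest rise of those with a mean of at least 5 CPM, and its fitted log2 fold change of 8.87, or 5.397 without P16 shRNA replicate 3, rests on few control reads. The adaptor genes Mavs and Sting1 were not called, with log2 fold changes of -0.29 and 0.58, though Sting1 had 0.42 with the block (adjusted p = 0.0473 from edgeR). Of the sensors, 4 were higher when either library numbered 3 was left out and 3 when nc shRNA replicate 1 was, while 9 were higher on leaving out P16 shRNA replicate 6. Calls that did not hold without a single library were those of Ddx58 without nc shRNA replicates 1 or 5 (log2 fold change 1.57 to 1.74).

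Antiviral effectors formed the list with the most called genes. Of 55 effector genes 52 were tested, 40 were higher and 0 lower, against 5.44% higher over all genes, and their median log2 fold change was 3.16. In 40 of the 52 every P16 shRNA library lay above every control, against 10.7% of all genes. Isg15, the ubiquitin-like modifier, had 0.837, 3.36 and 3.33 CPM with nc shRNA and 341, 97.6 and 111 CPM with P16 shRNA (log2 fold change 6.18, standard error 0.81, unadjusted p = 0.000193 from edgeR), and 5.84 with the block (adjusted p = 0.00746 from edgeR). Ifit1, which binds RNA that lacks a methylated cap, had 2.12, 6.34 and 6.94 CPM with nc shRNA and 588, 112 and 73.96 CPM with P16 shRNA (log2 fold change 5.65, standard error 1.03, unadjusted p = 0.00122 from edgeR). Bst2, the tetherin that holds budding virions, had 27.6, 19.7 and 59.3 CPM with nc shRNA and 561, 239 and 312 CPM with P16 shRNA (log2 fold change 3.38, standard error 0.54, unadjusted p = 0.000543 from edgeR). The 3 libraries with P16 shRNA were ordered alike in these genes in that replicate 3 was highest, and the lowest of them still exceeded the highest control.

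Apol9a, an apolipoprotein L gene, had the smallest p among the higher genes, with 2.84, 1.66 and 1.37 CPM with nc shRNA and 75.99, 22.1 and 39.4 CPM with P16 shRNA (log2 fold change 4.55, standard error 0.57, unadjusted p = 0.00013 from edgeR), and its near-identical neighbour Apol9b had 0.614, 0.808 and 1.804 against 51.3, 17.01 and 26.1 CPM. Reads of such copies could be split by the counting, so the values of each are uncertain. Rsad2, which encodes the antiviral enzyme viperin, had counts of 1, 11 and 16 in the controls and 5193, 382 and 113 with P16 shRNA. Ifitm3, which blocks virus entry, was the most abundant effector per length, with 345 ± 25.2 FPKM with nc shRNA and 828 ± 261 FPKM with P16 shRNA (SD, n = 3 each). Its counts gave 223, 259 and 242 CPM with nc shRNA and 799, 434 and 511 CPM with P16 shRNA (log2 fold change 1.27, standard error 0.26, unadjusted p = 0.00199 from edgeR). An effector that was not called was Ifitm2, with 103, 105 and 102 against 106, 99.9 and 143 CPM. The summed level of the effector list was 855, 922 and 965 CPM with nc shRNA and 8315, 2488 and 2495 CPM with P16 shRNA, so that P16 shRNA replicate 3 stood far above the other treated libraries. Without that library the median was 1.94 with 40 genes higher, and without both libraries numbered 3 it was 1.93 with 39 higher, against 3.71% of all genes in that fit. With the block over 12 libraries, 27 effectors were higher with an edgeR-adjusted p below 0.05. A term for Y-linked transcripts gave a median of 3.03. The library with the highest effector level, P16 shRNA replicate 3, also had the lowest summed levels of the endothelial, sinusoidal and macrophage markers. Its summed level of mesenchymal genes, 36814 CPM, was the highest. The part of these differences in the effector levels was not tested.

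The other genes named by the smallest p or the largest fold had various functions. Rnf128, a ubiquitin ligase, had 18.9, 13.5 and 19.1 CPM with nc shRNA and 37.2, 41.04 and 40.9 CPM with P16 shRNA (log2 fold change 1.21, standard error 0.19, unadjusted p = 0.000509 from edgeR), and Olr1, a scavenger receptor for oxidised lipoprotein, 4.02, 23.4 and 10.99 CPM with nc shRNA and 52.05, 26.5 and 32.9 CPM with P16 shRNA (1.23 with the block, adjusted p = 0.00276 from edgeR). Ctsc, which encodes the lysosomal protease cathepsin C, had 3.18, 5.32 and 22.1 CPM with nc shRNA and 30.6, 74.9 and 62.5 CPM with P16 shRNA and the smallest p of the higher genes with the block (2.15, adjusted p = 0.00198 from edgeR). Erp29, a chaperone of the endoplasmic reticulum, had 54.6, 57.05 and 78.3 against 125, 133 and 183 CPM, the ubiquitin ligase gene Rnf149 48.6, 30.6 and 45.1 against 53.5, 88.9 and 73.7 CPM, and the opioid growth factor receptor gene Ogfr 55.5, 81.9 and 56.4 against 192, 99.7 and 128 CPM. Of the poorly described genes, AW011738 had 1.56, 0.978 and 1.37 against 9.83, 6.98 and 5.58 CPM, Gm6548 18.7, 18.2 and 17.3 against 49.7, 35.3 and 42.3 CPM and Gm4951 0.0558, 0.0425 and 0.0547 against 21.8, 1.05 and 0.703 CPM. Cmpk2, a mitochondrial nucleotide kinase next to Rsad2, had counts of 3, 3 and 6 in the controls and 1963, 202 and 64 with P16 shRNA, and Gm12250 and Oas1g had 0 counts in a control library, so that no fold is given for them. The rule took genes without overlap between the groups, so their separation is no result. Leaving out a library ended the call of Olr1 without nc shRNA replicates 1 or 5 or P16 shRNA replicates 3, 5 or 6 (log2 fold change 1.096 to 1.73) and Rnf149 without nc shRNA replicate 3 or P16 shRNA replicates 5 or 6 (log2 fold change 0.62 to 0.76).

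**Figure D3:**
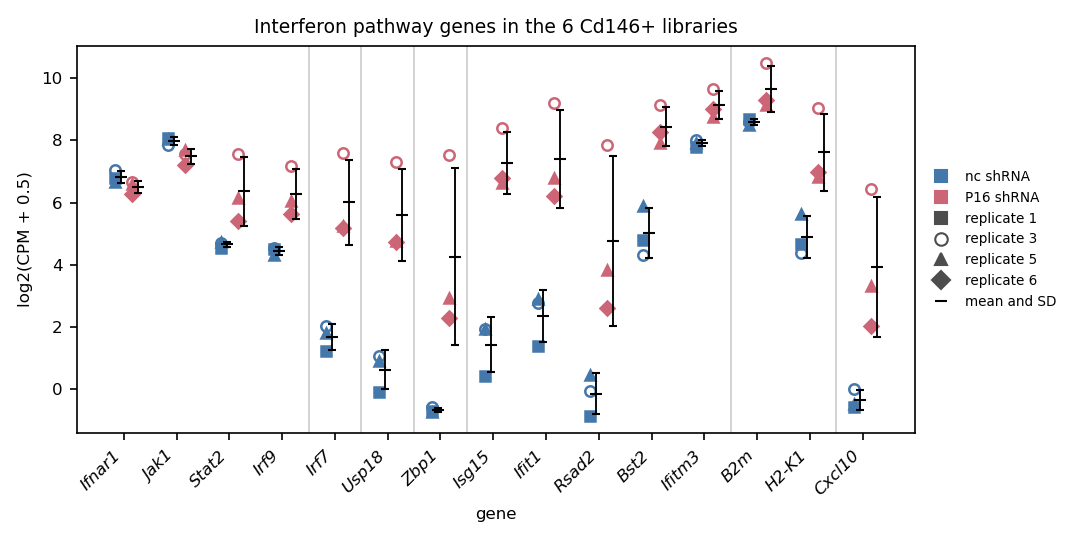
Level of interferon pathway genes as log2(CPM + 0.5) in the 6 Cd146+ libraries, from receptor and kinase to transcription factors, feedback, sensor, effectors, antigen presentation and chemokine. P16 shRNA replicate 3 (open red circles) is highest in all 13 genes from Stat2 onwards, and P16 shRNA replicates 5 and 6 lie above all controls in them.

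Interferon-inducible GTPases, which attack the vacuoles of intracellular pathogens, were higher in 9 of 18 tested genes. Irgm1 had 90.9, 173 and 90.03 CPM with nc shRNA and 513, 217 and 179 CPM with P16 shRNA (log2 fold change 1.36, standard error 0.48, unadjusted p = 0.0275 from edgeR), and with the block 1.35 and an adjusted p of 0.00287 from edgeR. Igtp had 1.897, 2.81 and 2.79 against 125, 17.3 and 19.4 CPM (log2 fold change 4.42, standard error 0.91, unadjusted p = 0.00227 from edgeR, 2.87 without P16 shRNA replicate 3). Of the guanylate-binding protein genes Gbp6 and Gbp7 were higher. Gbp2 had 4.52, 3.11 and 54.9 against 100.2, 88.7 and 52.9 CPM, with nc shRNA replicate 5 above a treated library, and was not called (log2 fold change 1.95), but without that control library it was (4.404). Leaving out nc shRNA replicate 1 left 5 GTPase genes called, and leaving out nc shRNA replicate 5 left 14. A call was lost on leaving out 1 library for Irgm1 without nc shRNA replicates 1 or 5 or P16 shRNA replicate 3 (log2 fold change 0.74 to 1.198) and Gbp7 without nc shRNA replicates 1 or 3 or P16 shRNA replicate 3 (log2 fold change 1.56 to 2.497).

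Genes of antigen presentation by MHC class I were higher in 9 of 17 tested genes, with a median of 0.97. B2m, the light chain of every class I molecule, had 416, 386 and 362 CPM with nc shRNA and 1433, 559 and 631 CPM with P16 shRNA (log2 fold change 1.17, standard error 0.38, unadjusted p = 0.0183 from edgeR, 0.61 without P16 shRNA replicate 3), and was not called without nc shRNA replicate 5 (1.13). H2-K1, a classical heavy chain, had 25.1, 20.3 and 49.7 CPM with nc shRNA and 525, 113 and 127 CPM with P16 shRNA (log2 fold change 3.01, standard error 0.73, unadjusted p = 0.0053 from edgeR, 1.92 without P16 shRNA replicate 3). Tap2, of the peptide transporter, had 14.7, 17.02 and 18.9 against 39.8, 26.3 and 30.8 CPM (log2 fold change 0.94, standard error 0.22, unadjusted p = 0.00381 from edgeR), while the chaperone gene Canx, with 594, 666 and 721 against 728, 716 and 619 CPM, was not called. Heavy chain genes are close copies of each other, so that reads could be split between them. Of 5 immunoproteasome genes 4 were higher, and Psmb8, a catalytic subunit, had 0.781, 1.36 and 3.72 against 40.5, 7.38 and 8.59 CPM (log2 fold change 3.27, standard error 0.91, unadjusted p = 0.0104 from edgeR, 2.03 without P16 shRNA replicate 3). The 7 MHC class II genes summed to 5.41, 5.36 and 13.9 CPM with nc shRNA and 9.47, 17.4 and 24.8 CPM with P16 shRNA. Of the 3 that were tested H2-DMb1, which helps to load class II molecules, was higher, with 2.34, 2.595 and 6.23 CPM with nc shRNA and 5.58, 10.3 and 13.1 CPM with P16 shRNA (log2 fold change 1.37, standard error 0.51, unadjusted p = 0.0311 from edgeR). Cd74, the invariant chain, had 0.279, 0.553 and 0.547 against 0.929, 0.254 and 0.904 CPM. The call depended on single libraries for H2-DMb1 without nc shRNA replicates 1 or 3 or P16 shRNA replicates 5 or 6 (log2 fold change 1.08 to 1.32).

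Among 18 tested chemokine genes, 5 were higher and 1 lower. Ccl2, which attracts monocytes, had 64.1, 119 and 94.1 CPM with nc shRNA and 466, 210.5 and 183 CPM with P16 shRNA (log2 fold change 1.63, standard error 0.42, unadjusted p = 0.00705 from edgeR, 1.09 without P16 shRNA replicate 3). Cxcl10, which attracts activated T cells, had counts of 3, 12 and 4 in the controls and 1951, 262 and 72 with P16 shRNA (log2 fold change 6.72, standard error 1.47, unadjusted p = 0.00312 from edgeR, 4.399 without P16 shRNA replicate 3). Ccl5, Ccl9 and Ccl20 were the other higher genes, all under 20 CPM in every library. Cx3cl1, the membrane-bound fractalkine, was lower, with 63.7, 22.97 and 43.4 CPM with nc shRNA and 9.87, 25.6 and 19.7 CPM with P16 shRNA (log2 fold change -1.24, standard error 0.47, unadjusted p = 0.0372 from edgeR), and its groups overlapped. Cxcl12, the most abundant chemokine gene in CPM, had 3865, 5102 and 1521 CPM with nc shRNA and 5191, 1513 and 859 CPM with P16 shRNA and was not called. Leaving out nc shRNA replicate 5 raised the higher count to 9, and leaving out nc shRNA replicate 3 lowered it to 3. With 1 library left out, the call was lost for Ccl5 without nc shRNA replicate 3 or P16 shRNA replicate 3 (log2 fold change 2.26 to 4.15), Ccl9 without nc shRNA replicates 1 or 3 or P16 shRNA replicates 5 or 6 (log2 fold change 1.48 to 1.82) and Cx3cl1 without nc shRNA replicates 1 or 5 or P16 shRNA replicates 3 or 6 (log2 fold change -1.305 to -0.87).

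Il6, which encodes a cytokine of the acute phase, was among the steadiest rises. It had 20.6, 13.95 and 20.9 CPM with nc shRNA and 51.6, 54.7 and 53.3 CPM with P16 shRNA (log2 fold change 1.52, standard error 0.20, unadjusted p = 0.000174 from edgeR), a 2.88-fold rise of the mean with little spread in either group. Its blocked value was 1.59 (edgeR-adjusted p = 0.00324). Unlike the antiviral genes, its 3 treated libraries lay within a few CPM of each other. Of 19 tested genes of inflammation, Tnfsf10 and Tnfaip3 were the other 2 called, both higher. Tnf did not pass the filter, with counts of 1, 2 and 3 and 2, 15 and 5. Among 20 tested genes of cell death, 4 were higher and 3 lower. Casp4, an inflammatory caspase, had 8.1998, 9.74 and 15.03 CPM with nc shRNA and 32.1, 20.5 and 23.6 CPM with P16 shRNA (log2 fold change 1.21, standard error 0.30, unadjusted p = 0.00538 from edgeR), and Bcl2l1, which encodes the survival factor BCL-XL, 145, 159.7 and 125 CPM with nc shRNA and 80.2, 83.6 and 99.3 CPM with P16 shRNA (log2 fold change -0.71, standard error 0.18, unadjusted p = 0.00527 from edgeR). The other higher genes were Casp12, Gsdme and Bak1, and the other lower ones Casp9 and Bcl2. The higher count fell to 1 without nc shRNA replicate 1 or replicate 3 and to 2 without P16 shRNA replicate 3, and the lower count to 1 without nc shRNA replicate 1. Calls that did not hold without a single library were those of Tnfaip3 without nc shRNA replicates 1 or 3 or P16 shRNA replicates 3 or 5 (log2 fold change 0.34 to 0.60), Casp12 without nc shRNA replicates 1 or 3 or P16 shRNA replicates 3 or 5 (log2 fold change 0.37 to 0.52), Gsdme without nc shRNA replicates 1 or 3 or P16 shRNA replicate 3 (log2 fold change 0.70 to 1.04), Bak1 without nc shRNA replicates 1 or 3 or P16 shRNA replicate 6 (log2 fold change 0.32 to 0.48), Casp9 without nc shRNA replicate 1 or P16 shRNA replicate 3 (log2 fold change -0.53 to -0.52) and Bcl2 without nc shRNA replicate 1 or P16 shRNA replicates 5 or 6 (log2 fold change -0.92 to -0.46).

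Fold changes of further lists were small beside those of the interferon genes. Genes of sterol and fatty acid synthesis were higher in 8 of 28 and lower in 0, with a median of 0.63. Fdft1, which makes squalene, had 21.03, 36.2 and 32.5 CPM with nc shRNA and 109.9, 46.3 and 52.6 CPM with P16 shRNA (log2 fold change 1.22, standard error 0.39, unadjusted p = 0.0179 from edgeR, 0.72 without P16 shRNA replicate 3). P16 shRNA replicate 3 was its highest library, and without that library 3 genes were called and the median was 0.17. With nc shRNA replicate 1 or replicate 3 left out, 4 and 5 were higher. Of 14 genes of endoplasmic reticulum stress, 6 were higher. Herpud1, of protein degradation at that membrane, had 50.5, 35.01 and 58.1 CPM with nc shRNA and 82.5, 82.8 and 98.4 CPM with P16 shRNA (log2 fold change 0.88, standard error 0.23, unadjusted p = 0.00644 from edgeR), and the chaperone gene Hspa5 had 887, 1029.6 and 1167 CPM with nc shRNA and 1495, 1444 and 1452 CPM with P16 shRNA (log2 fold change 0.51, standard error 0.18, unadjusted p = 0.0239 from edgeR). Leaving out any library but nc shRNA replicate 5 brought the count for this list to 3 or 4, and leaving out both libraries numbered 3 brought it and the sterol count to 2. Leaving out a library ended the call of Fdft1 without nc shRNA replicate 1 (log2 fold change 0.998) and Hspa5 without nc shRNA replicates 1 or 3 or P16 shRNA replicates 3 or 5 (log2 fold change 0.40 to 0.52).

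**Figure D4:**
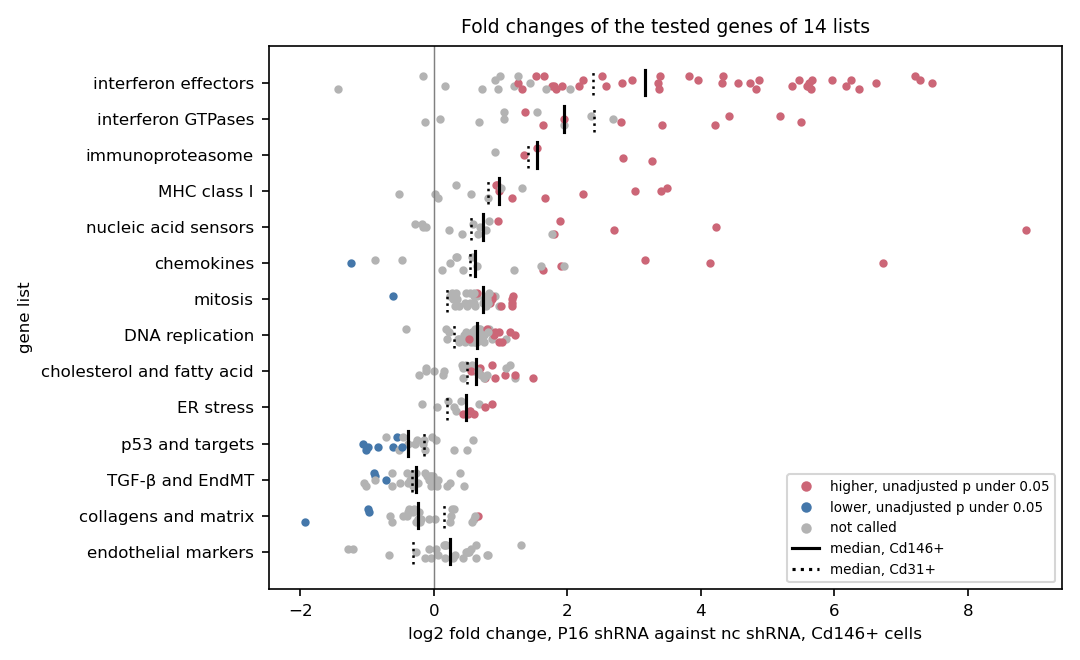
Log2 fold change (x axis) of each tested gene of 14 lists (rows), with P16 shRNA against nc shRNA in Cd146+ cells, coloured where the unadjusted p was under 0.05. Solid bars are the Cd146+ medians and dotted bars the Cd31+ medians of the same lists. Interferon effectors spread furthest to the right, with a median of 3.16, and p53 targets sit left of 0, with a median of -0.39.

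Reep3, which encodes a protein that shapes the endoplasmic reticulum, had the smallest p of the lower genes, with 97.3, 77.001 and 73.9 CPM with nc shRNA and 22.2, 28.1 and 20.8 CPM with P16 shRNA (log2 fold change -1.804, standard error 0.20, unadjusted p = 5.75e-05 from edgeR). Gsk3b, a kinase that restrains β-catenin and cyclin D1, had 152, 136 and 119.7 CPM with nc shRNA and 55.4, 57.3 and 46.9 CPM with P16 shRNA (log2 fold change -1.35, standard error 0.17, unadjusted p = 0.000134 from edgeR), and with the block -1.17 (adjusted p = 0.00178 from edgeR). Sulf2, an enzyme that trims heparan sulfate outside the cell, had 403, 326 and 192 CPM with nc shRNA and 77.8, 56.1 and 53.1 CPM with P16 shRNA (log2 fold change -2.2995, standard error 0.32, unadjusted p = 0.000224 from edgeR) and the smallest p of the lower genes with the block (-1.95, adjusted p = 0.000631 from edgeR).

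Plec, which encodes the cytoskeletal linker plectin, had 749.9, 712 and 611 CPM with nc shRNA and 305, 312 and 265 CPM with P16 shRNA (log2 fold change -1.23, standard error 0.17, unadjusted p = 0.000214 from edgeR). Fto, an RNA demethylase, had 117, 92.1 and 82.2 CPM with nc shRNA and 41.1, 40.9 and 35.6 CPM with P16 shRNA (log2 fold change -1.31, standard error 0.19, unadjusted p = 0.000284 from edgeR), and Plxna1, a semaphorin receptor, 536, 385 and 351 CPM with nc shRNA and 158, 161 and 119 CPM with P16 shRNA (log2 fold change -1.54, standard error 0.23, unadjusted p = 0.000362 from edgeR). Zdhhc20, which attaches palmitate to proteins, had 177, 191 and 165 against 88.6, 85.5 and 75.3 CPM, and Ano3, of the anoctamin family, 22.1, 23.7 and 23.3 against 5.399, 9.09 and 6.68 CPM. The 3 treated libraries lay close together in Plec, Fto and Zdhhc20, and less so in Plxna1 and Ano3. The block added Gnai2, an inhibitory G protein subunit, with 606, 503 and 591 CPM with nc shRNA and 143, 223 and 275 CPM with P16 shRNA (-1.61 with the block, adjusted p = 0.00178 from edgeR). It also added the sheddase gene Adam10, with 373, 463 and 241 against 145, 105 and 88.7 CPM (-1.41, adjusted p = 0.00198 from edgeR), Asap1, which acts on ARF GTPases, with 321, 302 and 214 against 131, 96.7 and 65.8 CPM, and the mitochondrial carrier gene Slc25a39, with 130.4, 141 and 141 against 63.6, 68.6 and 85.1 CPM.

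Matrix genes stood among the largest falls. Efemp2, which encodes the elastic fibre protein fibulin-4, had 439, 276 and 279 CPM with nc shRNA and 62.9, 86.6 and 111 CPM with P16 shRNA (log2 fold change -1.93, standard error 0.30, unadjusted p = 0.00038 from edgeR), and with the block -1.8997 (adjusted p = 0.00198 from edgeR). Prelp, a leucine-rich matrix protein, had 3030.0, 450.4 and 334 CPM with nc shRNA and 179, 250.1 and 214 CPM with P16 shRNA (log2 fold change -2.57, standard error 0.87, unadjusted p = 0.0239 from edgeR), and its size rests on nc shRNA replicate 1, without which it was -0.89, while the block gave -0.88 (adjusted p = 0.0449 from edgeR). Matn4 and Sned1, further matrix genes, had log2 fold changes of -2.84 and -2.18, the former -1.77 without nc shRNA replicate 1. Of 28 genes of collagens and other matrix, 3 were lower, Efemp2, Hspg2 and Lamb2, and 1 was higher, Col3a1, with 2747, 4140.1 and 3129.9 CPM with nc shRNA and 6298, 5283 and 4221 CPM with P16 shRNA (log2 fold change 0.66, standard error 0.25, unadjusted p = 0.0338 from edgeR). The median of the list was -0.23. With the block, 3 were higher and 2 lower with an edgeR-adjusted p below 0.05, and the median was 0.031. A call was lost on leaving out 1 library for Prelp without P16 shRNA replicates 3, 5 or 6 (log2 fold change -2.69 to -2.46), Hspg2 without nc shRNA replicate 1 or P16 shRNA replicate 6 (log2 fold change -0.94 to -0.71), Lamb2 without nc shRNA replicate 1 or P16 shRNA replicates 5 or 6 (log2 fold change -0.99 to -0.62) and Col3a1 without nc shRNA replicates 1 or 5 or P16 shRNA replicates 3 or 5 (log2 fold change 0.50 to 0.66).

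**Figure D5:**
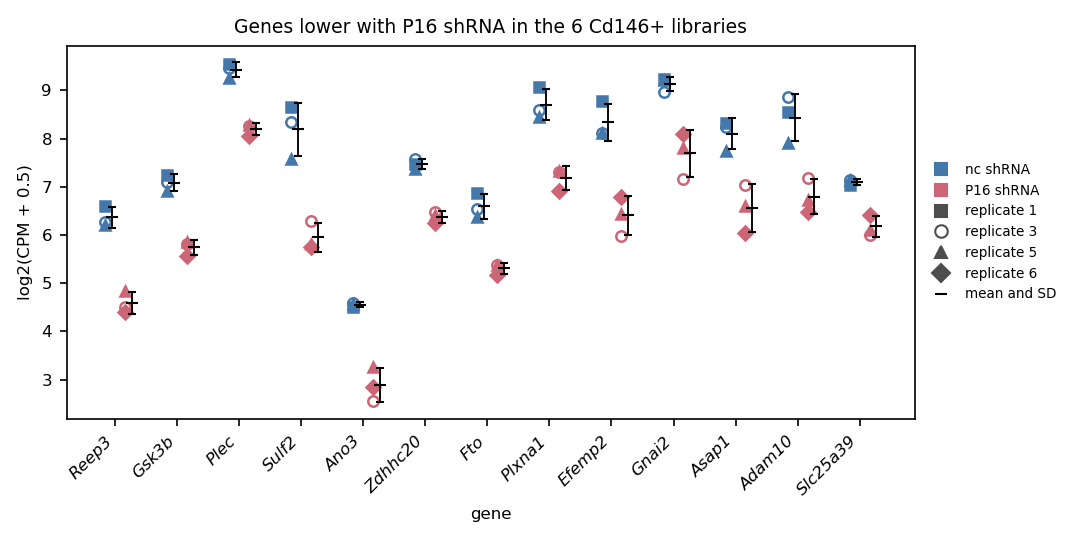
Level of the lower genes with the smallest p as log2(CPM + 0.5) in the 6 Cd146+ libraries, by construct (colour) and replicate number (shape), with the mean and SD of each group. The rule took genes without overlap, so every P16 shRNA library lies below every nc shRNA library in all 13.

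A pair of receptors of the transforming growth factor family were lower. Of 31 genes of that pathway and of endothelial to mesenchymal transition, 3 were lower and 0 higher, against 6.18% lower over all genes. That count is too near this share to be a result about the list. Tgfbr2, the ligand-binding receptor, had 269, 411 and 243 CPM with nc shRNA and 205, 161 and 132 CPM with P16 shRNA (log2 fold change -0.89, standard error 0.27, unadjusted p = 0.0142 from edgeR), Bmpr2, its relative for bone morphogenetic proteins, 258, 143 and 144 CPM with nc shRNA and 88.8, 119 and 87.5 CPM with P16 shRNA (log2 fold change -0.89, standard error 0.29, unadjusted p = 0.0188 from edgeR), and Zeb1, a transcription factor of that transition, 81.2, 79.6 and 80.2 against 65.1, 51.4 and 29.8 CPM (log2 fold change -0.72, standard error 0.29, unadjusted p = 0.041 from edgeR). Without P16 shRNA replicate 3, 6 genes of this list were lower. With the block, 7 of the list were lower with an edgeR-adjusted p below 0.05, against 5.06% of all genes in that fit. Fn1, the fibronectin gene, had a log2 fold change of -0.39 and was not called. The call depended on single libraries for Bmpr2 without P16 shRNA replicate 6 (log2 fold change -0.83) and Zeb1 without nc shRNA replicates 1, 3 or 5 or P16 shRNA replicate 5 (log2 fold change -0.76 to -0.72).

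Of 26 tested markers of the endothelium none was called in the fit over 6 libraries, where their median was 0.24. With the block Tal1, a transcription factor of blood and endothelial lineages, was lower (-0.56, adjusted p = 0.0497 from edgeR) and the median of the markers was -0.31, and a term for Y-linked transcripts gave a median of -1.34. Of 21 junction genes Ctnna1, which encodes α-catenin, was lower, with 707, 547 and 586 CPM with nc shRNA and 392, 455 and 408 CPM with P16 shRNA (log2 fold change -0.55, standard error 0.18, unadjusted p = 0.0174 from edgeR). Of 29 genes of angiogenesis, Vegfa and Nrp1 were lower. Without both libraries numbered 3, 5 of this list were lower and 0 higher, against 5.34% lower over all genes in that fit. Nrp1, a coreceptor for VEGF, had 285, 78.6 and 99.9 CPM with nc shRNA and 65.3, 72.7 and 57.1 CPM with P16 shRNA (log2 fold change -1.25, standard error 0.49, unadjusted p = 0.0419 from edgeR), and the block gave -0.30 (adjusted p = 0.161 from edgeR). Of 32 tested genes of oxidant metabolism, Prdx6, a peroxidase, was higher (92.9, 76.4 and 169.5 against 131, 245 and 361 CPM) and Gclc, of glutathione synthesis, lower (50.6, 37.1 and 48.9 against 28.1, 32.8 and 23.8 CPM), while the block led to 2 higher and 3 lower genes of this list at an adjusted p below 0.05 from edgeR. Of 29 tested genes of the senescence-associated secretory phenotype and its markers, 2 were higher and 2 lower, the latter Timp2 and Mmp11. In the 6-library fit the junction, angiogenesis, oxidant and senescence counts were near the shares over all genes, 5.44% higher and 6.18% lower. They are thus no result about these lists. Lmnb1, which encodes the nuclear lamina protein lamin B1, was higher, with 34.8, 60.5 and 64.7 CPM with nc shRNA and 145, 77.2 and 73.8 CPM with P16 shRNA (log2 fold change 0.89, standard error 0.36, unadjusted p = 0.0436 from edgeR). With 1 library left out, the call was lost for Ctnna1 without P16 shRNA replicate 3 (log2 fold change -0.51), Nrp1 without nc shRNA replicate 1 or P16 shRNA replicates 3, 5 or 6 (log2 fold change -1.33 to -0.47), Prdx6 without nc shRNA replicates 1 or 3 or P16 shRNA replicates 5 or 6 (log2 fold change 0.72 to 1.12) and Lmnb1 without nc shRNA replicates 1 or 3 or P16 shRNA replicate 3 (log2 fold change 0.50 to 0.99).

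A list of 18 genes was taken from those assayed by RT-PCR in the study, whose primers cover more genes than these. Most of the listed genes are ones that the study's text reports as changed on silencing. Its counts are thus no independent evidence, and the lack of an uncalled gene is no result. Of these, 14 were tested here, 9 were higher and 5 lower. The higher ones included Stat2, Il6, Casp4, Ccl2, Ccl5, Ccl9 and Cxcl10, and Mastl, a mitotic kinase, with 5.52, 9.02 and 12.03 against 32.9, 15.7 and 11.3 CPM (log2 fold change 1.17, standard error 0.47, unadjusted p = 0.0444 from edgeR). The lower ones were Anapc2, of the anaphase-promoting complex, with 178, 181 and 129.6 CPM with nc shRNA and 109, 101 and 111 CPM with P16 shRNA (log2 fold change -0.61, standard error 0.19, unadjusted p = 0.0143 from edgeR), Mafk, Timp2, Vegfa and Fos. Fos, an immediate early transcription factor, had 116, 41.3 and 16.9 CPM with nc shRNA and 21.7, 12.98 and 14.7 CPM with P16 shRNA (log2 fold change -1.82, standard error 0.68, unadjusted p = 0.0338 from edgeR), and its groups overlapped, as did those of the next 2 genes. Timp2, an inhibitor of metalloproteinases, had 5710.5, 3545 and 2088 CPM with nc shRNA and 2167, 1862 and 2098 CPM with P16 shRNA (log2 fold change -0.89, standard error 0.36, unadjusted p = 0.045 from edgeR), and Vegfa 285, 161 and 211 CPM with nc shRNA and 142, 161 and 139 CPM with P16 shRNA (log2 fold change -0.57, standard error 0.24, unadjusted p = 0.0488 from edgeR). The highest value of all 3 was that of nc shRNA replicate 1. By RT-PCR the study saw no change of Vegfa in either cell population, unlike the call here. Calls that did not hold without a single library were those of Mastl without nc shRNA replicates 1 or 3 or P16 shRNA replicates 3 or 5 (log2 fold change 0.60 to 1.32), Anapc2 without nc shRNA replicate 3 or P16 shRNA replicate 5 (log2 fold change -0.56 to -0.53), Mafk without nc shRNA replicate 1 or P16 shRNA replicates 3 or 5 (log2 fold change -0.57 to -0.36), Fos without nc shRNA replicate 1 or P16 shRNA replicates 3, 5 or 6 (log2 fold change -2.07 to -0.84), Timp2 without nc shRNA replicates 1 or 3 or P16 shRNA replicates 3, 5 or 6 (log2 fold change -0.94 to -0.48) and Vegfa without nc shRNA replicates 1 or 5 or P16 shRNA replicates 3, 5 or 6 (log2 fold change -0.63 to -0.35).

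Silencing in the Cd31+ liver endothelial cells of the series, 3 libraries with each hairpin, was set beside these values. The question was whether the effect of P16 shRNA differed between the populations, and it was fitted as an interaction over the 12 libraries. Of 15676 genes tested, 168 (1.07%) had an unadjusted p under 0.05 and 0 an adjusted p under 0.05 from edgeR. With the replicate block over 24 libraries 705 genes had an unadjusted p under 0.05 and 0 an adjusted p under 0.05 from edgeR, and DESeq2's Wald test without that block 181 and 0. Cdkn2a had a log2 fold change of -3.08 in Cd31+ cells, and the difference, Cd146+ minus Cd31+, was -0.13 (unadjusted p = 0.849 from edgeR).

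The effector list had a median log2 fold change of 3.16 in Cd146+ and 2.38 in Cd31+ cells, and 0 of its 53 genes differed between them at an unadjusted p under 0.05. The Cd146+ median lay below the Cd31+ one on leaving out P16 shRNA replicate 3 (1.94) or both libraries numbered 3 (1.93). For Isg15 the difference was 1.47 (unadjusted p = 0.291 from edgeR), and for Rtp4, a chaperone of membrane receptors, 1.58 (unadjusted p = 0.182 from edgeR). The mitotic list had medians of 0.73 and 0.20, and p53 targets -0.39 and -0.14, with no gene of either list past that threshold for the difference. Over all lists 3 genes passed it, Cd74 (-1.89, unadjusted p = 0.0408 from edgeR), Dhcr7 (0.62, unadjusted p = 0.0345 from edgeR) and Vegfc (-1.05, unadjusted p = 0.0433 from edgeR). A p that misses the threshold does not show that the populations respond alike. Without nc shRNA replicate 5 of the Cd146+ cells 840 genes had an unadjusted p under 0.05 from edgeR. In that fit 0 had an adjusted p under 0.05 from edgeR, so that count shows no difference either.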

How the data were processed

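RNA of 24 libraries was sequenced, of which 6 are described and 18 served as further libraries in fits or as the Cd31+ comparison. The authors deposited 1 table with raw read counts per gene and FPKM values (reads scaled to gene length and library size) for each library. Per the labels, fastp and mm9 were used, and the aligner and counter are not given in the sources used here. FPKM values of the authors served only to set levels of different genes side by side. Columns of the authors' own comparisons, which hold group means, fold changes and p-values, were not used.

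Counts were tested with edgeR 4.0.16 (limma 3.58.1, R 4.3.3), by the quasi-likelihood test with TMM normalisation and filterByExpr and p-values adjusted by the Benjamini-Hochberg method across the tested genes. The 6-library fit had no block. CPM values were scaled by TMM and plotted with a pseudocount of 0.5. Replicate numbers were checked by the correlation of deviations from the group means over the 12 Cd146+ libraries. The 10 pairs with the same number and different constructs had a median r of 0.71 (lowest 0.354, highest 0.907), and 44 pairs with different numbers a median of -0.0699, so the numbers pair the libraries, and values with the block are given beside part of the results. The labels do not say whether replicates came from separate animals, and p-values measure the spread between these libraries only. The depth of 17710522 to 26470392 counts sets the precision. The tests were also run on simulated counts with the same spread for all genes and no pairing or cell type differences between libraries. Those runs do not show how the tests perform on libraries like these.

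The members and gene lists were chosen with earlier results of these data known. Named were Cdkn2a, the listed part of the RT-PCR genes, and 10 genes in each direction by the smallest p without and with the block. To these came 5 by the largest fold with a mean of at least 5 CPM. The genes named by p or fold were all without overlap between the groups. From each list its 6 most abundant members and the 4 with the smallest p were added, of which a selection is printed. Others were named for their role in a pathway after their values were seen. Alternatives were DESeq2 size factors, DESeq2 1.42.0 (Wald test), other filters on low counts, fits over more libraries, the block and leaving out each library. Fits without both libraries numbered 3 and with a term for Y-linked transcripts were chosen after seeing the data. Some genes are not reported here.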

Additional observations from a re-analysis of the deposited data

How the results depend on the processing

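Cdkn2a stayed lower at an unadjusted p under 0.05 in all 15 alternatives, with log2 fold changes from -3.88 (without P16 shRNA replicate 6) to -2.90 (without nc shRNA replicate 1) when 1 library was left out. Counts at an unadjusted p under 0.05 ranged from 329 to 1194 higher and from 486 to 1326 lower genes without 1 library, and the lowest counts were those without nc shRNA replicate 1. At an adjusted p under 0.05 edgeR called 0 genes with each library left out, 19 with all genes of at least 1 count, and 13 in the fit over 12 Cd146+ libraries without the block, and DESeq2's Wald test called 333. With the replicate block over 12 libraries the counts were 2131 higher and 2159 lower at an unadjusted p, and 1335 at an adjusted p under 0.05. The median of the antiviral effectors was 1.94 without P16 shRNA replicate 3 and 1.93 without both libraries numbered 3, and 1.94 to 3.47 when 1 library was left out. The difference between Cd146+ and Cd31+ cells gave 647 genes at an unadjusted p under 0.05 with all genes of at least 1 count, 522 and 705 with the replicate block over 12 and 24 libraries, and 108 to 840 without 1 library, and 0 genes at an adjusted p under 0.05 in every alternative run. Of 1768 values of 118 single genes, 1520 kept direction and side of the threshold, 229 lost the call, 14 gained it and 5 changed sign, all of genes not called without the block. Those were Cdkn1a without P16 shRNA replicate 3 (0.0011, lowest -0.59 without P16 shRNA replicate 6), Tal1 without nc shRNA replicate 1 (0.041, lowest -1.25 without nc shRNA replicate 3), and C4b without nc shRNA replicate 5 (-0.12), without P16 shRNA replicate 3 (-1.05) and without both libraries numbered 3 (-1.07), with a highest value of 0.67 without nc shRNA replicate 1. The cause of these shifts was not tested. DESeq2 size factors moved the median of all genes by -0.0037. With 3 libraries a group, an exact permutation test of 1 gene cannot go below 0.1.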

Other observations

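Further gene groups were fitted in the same libraries. Of 18 immediate early factors, Myc was higher, with 42.8, 56.9 and 58.8 CPM with nc shRNA and 122, 64.2 and 71.5 CPM with P16 shRNA (log2 fold change 0.70, standard error 0.29, unadjusted p = 0.0464 from edgeR), and Fos, Dusp1 and Mafk were lower. With the block over 12 libraries, 0 of them were higher and 2 lower with an edgeR-adjusted p below 0.05. Dusp1, a phosphatase of MAP kinases, had 217, 124 and 80.6 CPM with nc shRNA and 48.2, 65.8 and 91.8 CPM with P16 shRNA (log2 fold change -1.03, standard error 0.41, unadjusted p = 0.0417 from edgeR). Of 10 genes of small RNA processing Ago4, an Argonaute gene, was lower, with 8.92, 4.51 and 4.76 CPM with nc shRNA and 2.17, 3.96 and 2.91 CPM with P16 shRNA (log2 fold change -1.004, standard error 0.41, unadjusted p = 0.0453 from edgeR), and 0 were higher. None of 17 tested complement genes and none of 12 tested mitochondrially encoded genes was called, with medians of 0.25 and -0.13, though with the block C4b, a complement component, was higher (0.93, adjusted p = 0.031 from edgeR). Rspo3, a WNT amplifier of the liver endothelium, was the called gene of 16 tested sinusoidal markers, with 16.6, 10.1 and 22.6 CPM with nc shRNA and 20.9, 30.5 and 35.8 CPM with P16 shRNA (log2 fold change 0.82, standard error 0.34, unadjusted p = 0.0491 from edgeR). Single calls in lists of 10 to 18 genes, as for Myc, Ago4 and Rspo3, lie near the 5.44% higher and 6.18% lower over all genes. Hepatocyte markers summed to 422, 304 and 399.8 CPM with nc shRNA and 117, 253 and 445 CPM with P16 shRNA, and lymphoid markers to 0.112, 0.298 and 0.164 CPM with nc shRNA and 0.266, 0.436 and 0.201 CPM with P16 shRNA. Leaving out a library ended the call of Myc without nc shRNA replicates 1, 3 or 5 or P16 shRNA replicate 3 (log2 fold change 0.35 to 0.78), Dusp1 without nc shRNA replicates 1 or 3 or P16 shRNA replicates 3 or 5 (log2 fold change -1.12 to -0.59), Ago4 without nc shRNA replicate 1 or P16 shRNA replicates 3 or 6 (log2 fold change -0.9997 to -0.63) and Rspo3 without nc shRNA replicates 1 or 3 or P16 shRNA replicates 5 or 6 (log2 fold change 0.56 to 0.81).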
